A study of Rattus norvegicus with 6 samples.

Results

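The MAP kinase phosphatases described here are 9 genes given by symbol: Dusp1, Dusp2, Dusp4, Dusp5, Dusp6, Dusp7, Dusp10, Dusp14 and Dusp16. Every probe set annotated with exactly 1 of these symbols was taken, which gave 11 of the 31099 probe sets on the array, for 8 of the 9 genes and of the 14217 genes with a probe set of their own. Dusp1 had 2 probe sets, Dusp6 had 3 and the other members had 1 each, while Dusp16 had none and was not analysed here. The cells were cultured rat aortic smooth muscle cells, the contractile cells of the vessel wall, at passage 3 to 5, grown in 10% fetal calf serum and then held for 24 h in medium with 0.1% bovine serum albumin. The static group was 3 such cultures kept without flow, and the shear group was 3 confluent cultures under laminar flow in a parallel-plate chamber at 14 dynes/cm2 for 24 h. Each static array carries the same pairing number as 1 shear array. The labels do not say whether the pairs came from separate animals, so the p-values below measure the spread between these cultures, which may be technical.

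MAP kinases are switched on when an upstream kinase phosphorylates both a threonine and a tyrosine in their activation loop, and the dual-specificity phosphatases switch them off by removing both phosphates. Dusp1, Dusp2, Dusp4 and Dusp5 are nuclear enzymes whose transcripts are themselves induced by growth factors and stress, so that they form a negative feedback on the pathway. Dusp6 and Dusp7 act in the cytoplasm and prefer ERK, the kinase of growth factor signalling. Dusp10 and Dusp16 prefer JNK and p38, the kinases of stress signalling, and Dusp14 is a small enzyme without the kinase-binding domain of the others. In smooth muscle cells ERK signalling is known for its part in growth and in the loss of contractile proteins.

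Dusp5 and Dusp2 rose most under shear and Dusp1 fell most. Their proximal promoters are shown first because these 3 nuclear members, which belong to 1 class, moved furthest and in opposite directions. Each sequence is the RefSeq window of the rat GRCr8 assembly from 250 bases before the start of the gene to 50 bases from the start on, read 5′ to 3′ on the gene's strand. The windows lie at chr1:262543524-262543823 for Dusp5, chr3:135009386-135009685 for Dusp2 and chr10:17184603-17184902 for Dusp1, all on the plus strand. Capitals mark matches, on either strand, to the cAMP response element core TGACG, the CArG box that serum response factor binds, or the E-box CACGTG.
Dusp5: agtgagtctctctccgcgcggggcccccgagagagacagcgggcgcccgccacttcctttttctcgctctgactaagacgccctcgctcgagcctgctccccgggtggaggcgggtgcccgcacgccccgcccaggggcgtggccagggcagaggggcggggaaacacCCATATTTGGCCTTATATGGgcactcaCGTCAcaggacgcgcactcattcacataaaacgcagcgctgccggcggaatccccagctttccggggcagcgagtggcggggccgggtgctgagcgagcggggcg
Dusp2: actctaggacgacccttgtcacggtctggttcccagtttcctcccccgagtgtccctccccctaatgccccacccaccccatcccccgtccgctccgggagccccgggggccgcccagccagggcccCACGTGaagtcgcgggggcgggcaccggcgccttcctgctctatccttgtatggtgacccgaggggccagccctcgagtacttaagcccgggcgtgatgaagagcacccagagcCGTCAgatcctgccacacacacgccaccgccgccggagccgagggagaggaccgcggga
Dusp1: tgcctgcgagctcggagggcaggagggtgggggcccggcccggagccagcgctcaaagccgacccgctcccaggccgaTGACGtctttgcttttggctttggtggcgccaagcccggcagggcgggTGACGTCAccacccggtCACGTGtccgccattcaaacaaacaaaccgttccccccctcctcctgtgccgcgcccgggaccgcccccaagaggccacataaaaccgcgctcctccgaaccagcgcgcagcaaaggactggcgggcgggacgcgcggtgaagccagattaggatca
The Dusp5 window held 2 adjacent CArG boxes, beginning 82 and 72 bases before the start. A CArG box was found in 1.64% of the 33469 windows in the table, and among the 8 members with a window only Dusp5 had one. Dusp1 held the full cAMP response element TGACGTCA, beginning 124 bases before the start, which was found in 1.83% of all windows and in no other member with a window. That element contains the core on each strand, and a further core match lay 172 bases before the start of Dusp1. The core was found in 21.2% of all windows and in those of 5 members: Dusp1, Dusp2, Dusp5, Dusp14 and Dusp16. It is therefore present in members that rose and in members that fell. The E-box was found in 6.42% of all windows, and in Dusp1 and Dusp2 it began 107 and 123 bases before the start. Of the other motifs searched, on both strands, the GC box GGGCGG was found in 33.1% of all windows and in 7 members, Dusp6 being the exception. The AP-1 site TGANTCA, in 7.33% of windows, and the TATA box TATAAA, in 14.2%, were each found in Dusp14 alone, and TGACNNNGC, in 12.1%, in no member with a window. Dusp14 had more than 1 window, and its TATA box, GC box and AP-1 site each lay in a different one. The other members with a window had 1 each. A member was counted if any of its windows matched, while the shares are per window, so Dusp14 had more chances of a match. Dusp4 was not among the genes with a window. Each match is a stretch of letters and was not tested as a binding site.

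The array values were signals on a linear scale, with the same trimmed mean on every array. The median signal of an array was 21.1 to 22.6 in the static group and 17.3 to 18.9 in the shear group. Changes are given as log2 fold changes, shear minus static, of signal plus 16, fitted with limma over all probe sets past a filter on low signal, with Benjamini-Hochberg adjustment and a threshold of 0.05. On this scale the change of a gene with low signal is understated. All 11 member probe sets passed the filter, and each passed it in the static group alone and in the shear group alone. Dusp2 passed only narrowly in the static group, with a mean log2 of signal plus 16 of 4.526 beside the limit of 4.504. The response was broad: 52.8% of the 21729 probe sets tested passed the threshold, 24.3% as risen and 28.5% as fallen. With arrays centred on their medians, which moved the median change of all probe sets by 0.15, these shares became 31.4% and 21.7%. Of 12 smooth muscle markers, each taken by its brightest probe set, 9 fell and none rose. Probe sets disagreed for Tpm1, with 2 of 6 risen and 3 fallen, and Tpm2 fell on 1 of 2. The summed signal of the 12 markers was 14430 to 15830 on the static arrays and 9520 to 9871 on the shear arrays. Acta2, smooth muscle actin, went from 1811 ± 157 (SD, n = 3) to 836 ± 89.1 (SD, n = 3), and Tagln, transgelin, was 2684 ± 284 and 2815 ± 93.3 and did not pass. The summed signal of the 11 endothelial markers with a probe set was 220.5 to 252.2 static and 216.3 to 227.1 shear. Of the 5 that were tested, 1 rose (Flt1, on 1 of 3 probe sets) and 1 fell (Egfl7, on 1 of 2). For the 11 leukocyte markers with a probe set the summed signal was 211.8 to 265.9 static and 156.7 to 194.3 shear. Of the 5 that were tested, Cd14 fell from 181.9 to 107.9 while Cd68 rose from 10.1 to 25.8. Coro1a, at 4.83 static and 12.2 shear, was tested because of its shear arrays, since its static signals lie below the filter on low signal. A gene tested in this way had to differ, so its rise is given as a description. Of 10 fibroblast markers 3 rose, among them Dcn by 0.39, and 4 fell. Pdgfra went from 489.7 to 92.6, Twist2 from 37.8 to 2.97, Col14a1 from 1501 to 575 and Scara5 from 434.1 to 181.0. Col14a1 fell on 1 of 2 probe sets. The summed signal of the 10 fibroblast markers was 7845 to 10820 static and 7262 to 10530 shear. Twist2, and Lmod1 among the 9 smooth muscle markers that fell, were tested because of their static arrays. Their means on the shear arrays lie below the filter on low signal, so both had to differ and their falls are given as descriptions. For beta-actin, the signal of the probe set at the 3′ end over that at the 5′ end, a measure of RNA integrity, was on the log2 scale 0.25 ± 0.036 (SD, n = 3) static and 0.39 ± 0.028 (SD, n = 3) shear without overlap, while that of GAPDH was 0.17 ± 0.0097 and 0.16 ± 0.0062. The part of these differences in the changes below was not tested, and in such bulk RNA fewer cells of a type and less RNA per cell cannot be told apart.

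Of the 8 genes, with the brightest probe set standing for each, 3 rose (Dusp2, Dusp5 and Dusp10), 3 fell (Dusp1, Dusp7 and Dusp14) and 2 did not pass (Dusp4 and Dusp6). Among all 11248 genes tested 57.9% passed, 27.8% as risen and 30.1% as fallen, so that calls were frequent on the whole array and the 6 calls among 8 members are read against that. The median change of the members was 0.14, beside −0.053 for all genes tested. By probe set, 3 rose, 4 fell and 4 did not pass. The static and shear signals did not overlap in 7 of the 11 probe sets, against 60.0% of all probe sets tested. In size, Dusp2 had the 4th and Dusp5 the 5th largest rise of all probe sets tested, an order that rests on the pseudocount: with 64 in place of 16, Dusp5 had 3.99 and Dusp2 3.69.

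**Figure D1:**
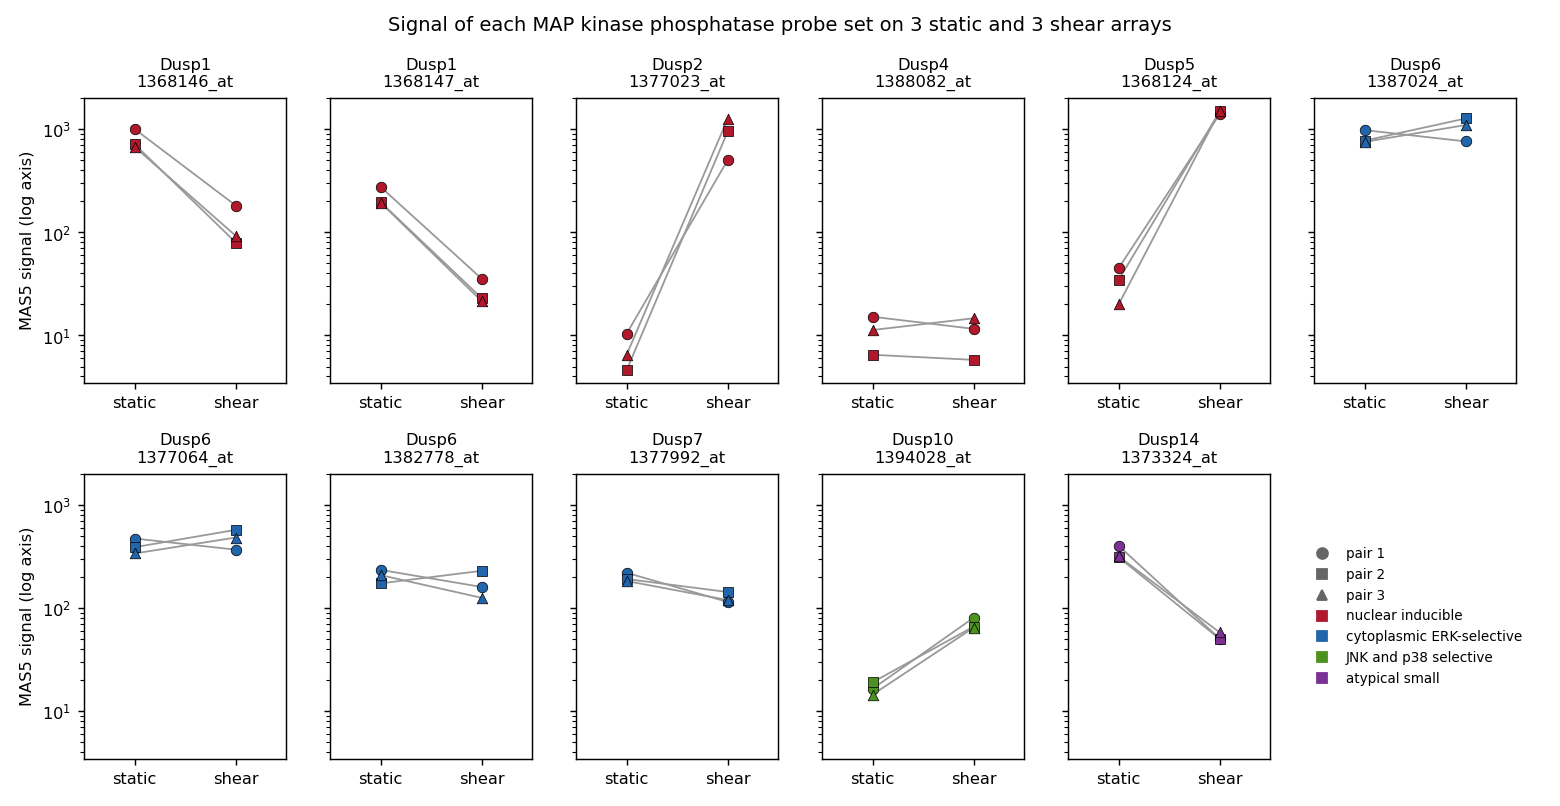
Signal of each of the 11 member probe sets on each array, on a log axis, with points for the 3 static and 3 shear cultures and lines joining the arrays of 1 pair. Dusp5 and Dusp2 move up from 45.0 or less to 505.2 or more, both Dusp1 probe sets and Dusp14 move down, and the points of Dusp4 and Dusp6 overlap.

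Dusp5, a nuclear phosphatase selective for ERK, had static signals of 45.0, 34.6 and 20.0 in pairs 1, 2 and 3 and shear signals of 1412, 1493 and 1513. The lowest shear array was far above the highest static one, and the 3 shear cultures lay close together. The mean went from 33.2 ± 12.6 (SD, n = 3) to 1473 ± 53.3 (SD, n = 3), a ratio of 44.4. The log2 fold change was 4.95 (SE 0.16, 95% interval 4.58 to 5.32, limma adjusted p = 1.5e-06), with 4.55, 4.90 and 5.41 in the 3 pairs. This value too depends on the pseudocount: it was 5.50 with a pseudocount of 1 and 3.99 with 64, and called in both. Within an array, Dusp5 stood between the 49.0 and 61.3 percentile of all probe sets under static culture and between 98.1 and 98.2 under shear.

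Dusp2, a nuclear phosphatase best known from activated immune cells, had signals of 10.4, 4.6 and 6.5 on the static arrays and 505.2, 956.3 and 1272 on the shear arrays. The shear array of pair 1 was the lowest of its group, yet still far above every static array. The means were 7.17 ± 2.96 (SD, n = 3) and 911 ± 385 (SD, n = 3), a ratio of 127 whose size rests on static signals in the lowest part of the array, at the 21.1 to 37.3 percentile. The log2 fold change was 5.23 (SE 0.26, 95% interval 4.62 to 5.84, limma adjusted p = 5.4e-06), with 4.30, 5.56 and 5.84 in the pairs. With such low static signals the value depends on the pseudocount: it was 6.77 with a pseudocount of 1 and 3.69 with 64, and called in both.

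Dusp1, the nuclear phosphatase that removes phosphate from p38, JNK and ERK and is an early gene of stress and growth factor responses, fell on both of its probe sets. The brighter one, 1368146_at, read 1009, 717.8 and 677.9 under static culture and 182.5, 79.9 and 92.6 under shear. The other, 1368147_at, read 276.7, 196.9 and 194.5 against 35.5, 23.0 and 21.5. The groups did not overlap on either probe set, and pair 1 was the highest in both groups on both. The brighter probe set had a log2 fold change of −2.66 (SE 0.12, 95% interval −2.95 to −2.37, limma adjusted p = 4.3e-06) and a mean 6.77 times higher in the static group, with −2.37, −2.94 and −2.68 in the pairs. The other had −2.48 (SE 0.11, 95% interval −2.73 to −2.23), with −2.51, −2.45 and −2.49. These were the 152nd and 193rd largest falls of all probe sets tested, so many transcripts fell further.

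Dusp4, the nuclear phosphatase closest in kind to Dusp1, was low in both groups. It read 15.2, 6.5 and 11.3 under static culture and 11.6, 5.8 and 14.7 under shear, between the 26.1 and 47.4 percentile of its arrays. The groups overlapped entirely and the pairs differed in sign, at −0.18, −0.05 and 0.17. The log2 fold change was −0.018 (SE 0.14, 95% interval −0.34 to 0.30, limma adjusted p = 0.92). With static signals this low a fall as large as that of Dusp1 could not appear on this scale, so the interval bounds a rise only.

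The nuclear class thus held 2 genes that rose, 1 that fell and 1 that did not pass, with changes from −2.66 to 5.23 and a median of 2.47. Its median describes none of its members. The cytoplasmic class held 1 gene that fell and 1 that did not pass, with a median of −0.15.

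**Figure D2:**
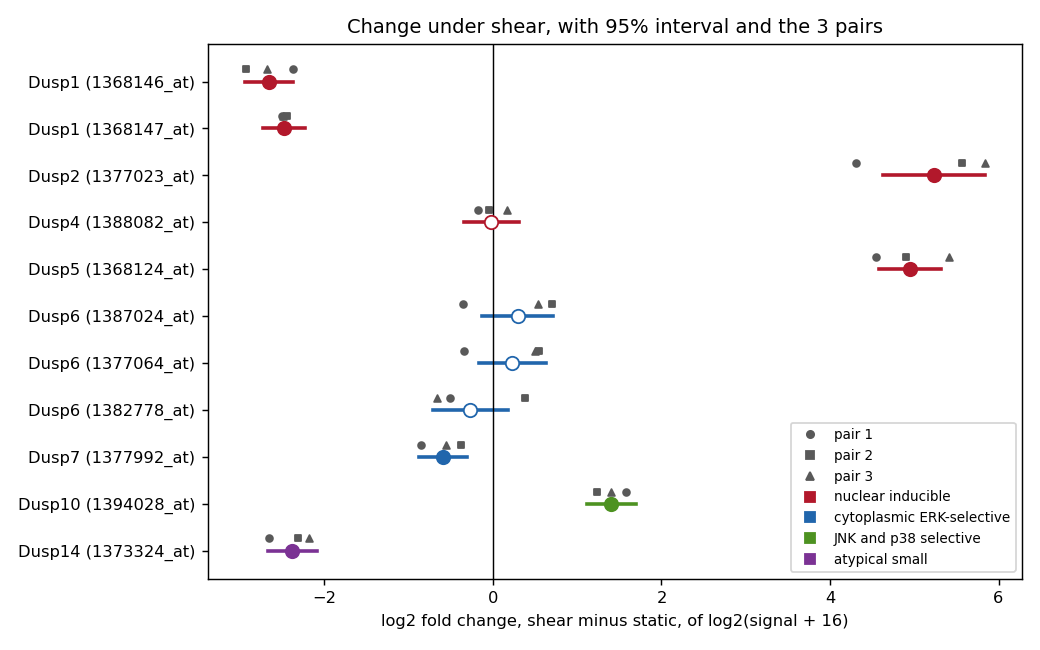
Log2 fold change of each member probe set, shear minus static, with its 95% interval (coloured bar), the 3 pairs (small grey symbols above it) and the class by colour; filled points passed the threshold. The nuclear members spread from −2.66 to 5.23, while the cytoplasmic ones lie between −0.60 and 0.29.

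Dusp6, the cytoplasmic phosphatase that is a standard readout of ERK activity, was measured by 3 probe sets and none passed. The brightest, 1387024_at, read 984.9, 778.4 and 757.6 under static culture and 765.4, 1278 and 1103 under shear. Shear was lower than static in pair 1 and higher in pairs 2 and 3, with changes of −0.36, 0.70 and 0.53. Its log2 fold change was 0.29 (SE 0.18, 95% interval −0.13 to 0.72, limma adjusted p = 0.21). The probe set 1377064_at followed the same order, with 474.3, 390.5 and 339.5 against 369.5, 575.8 and 485.0 and a log2 fold change of 0.23 (95% interval −0.16 to 0.62, adjusted p = 0.29). On 1382778_at the signals were 235.2, 174.0 and 209.2 against 160.5, 230.4 and 125.9, with a log2 fold change of −0.27 (95% interval −0.71 to 0.18, adjusted p = 0.28). This probe set differed from the others in pair 3, where it fell by 0.67 and they rose. Dusp6 was the member whose call hung on 1 pair: without pair 1, 1387024_at had a change of 0.62 (limma adjusted p = 5.9e-08) and 1377064_at 0.52 (adjusted p = 4.8e-06), and without pair 2, 1382778_at had −0.59 (adjusted p = 0.019). Those fits rest on 2 pairs and 1 residual degree of freedom, so their p-values lean on the variance borrowed from other probe sets. Without pair 1, 4 member genes rose in place of 3, and 5 member probe sets in place of 3.

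Dusp7, the other cytoplasmic ERK phosphatase, read 220.6, 191.8 and 183.5 under static culture and 114.8, 143.4 and 119.9 under shear. Every shear array was below every static array, by a smaller margin than for the other members that fell. Its log2 fold change was −0.60 (SE 0.12, 95% interval −0.88 to −0.31, limma adjusted p = 0.0044), with −0.86, −0.38 and −0.55 in the pairs and a static mean 1.58 times the shear mean. With arrays centred on their medians it was −0.45 (adjusted p = 0.023).

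Dusp10, which prefers JNK and p38, read 16.5, 19.1 and 14.5 under static culture and 80.9, 66.3 and 64.8 under shear. The groups did not overlap, and the mean went from 16.7 ± 2.31 (SD, n = 3) to 70.7 ± 8.89 (SD, n = 3). Its log2 fold change was 1.40 (SE 0.13, 95% interval 1.11 to 1.69, limma adjusted p = 6.6e-05), with 1.58, 1.23 and 1.41 in the pairs. It was 2.02 with a pseudocount of 1 and 0.74 with 64, called in both.

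Dusp14 read 403.8, 312.4 and 319.0 under static culture and 50.5, 50.2 and 58.1 under shear. The shear arrays were nearly alike, and the mean went from 345.1 ± 51.0 (SD, n = 3) to 52.9 ± 4.48 (SD, n = 3), 6.52 times higher in the static group. The log2 fold change was −2.38 (SE 0.13, 95% interval −2.67 to −2.09, limma adjusted p = 6.8e-06), with −2.66, −2.31 and −2.18 in the pairs. Its fall was the 218th largest of all probe sets tested, close to those of Dusp1.

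Whether 1 member changed more than another was tested directly, by comparing the log2 difference of the brightest probe sets of a pair of genes within each array between shear and static arrays. Unlike the limma fit, this test permuted the arrays without regard to their pairing numbers. With 3 arrays a group, the two-sided exact permutation test cannot go below 0.1, so none of the 11 gene pairs compared could pass a threshold of 0.05. For 9 of them the exact p was 0.1, the smallest possible, and 0.12 after Benjamini-Hochberg adjustment. Dusp5 changed by 4.66 ± 0.40 (SD over pairs, n = 3) more than Dusp6, and Dusp2 by 4.94 ± 0.33 (SD over pairs, n = 3) more. Against Dusp7 the differences were 5.55 ± 0.36 (SD over pairs, n = 3) for Dusp5 and 5.83 ± 0.62 (SD over pairs, n = 3) for Dusp2. Dusp2 and Dusp5 therefore stood above both cytoplasmic members in every pair. Dusp1 ran the other way, with −2.95 ± 0.84 (SD over pairs, n = 3) against Dusp6 and −2.06 ± 0.52 (SD over pairs, n = 3) against Dusp7. The smallest differences of the 11 were those of Dusp4 from the cytoplasmic members. They were −0.31 ± 0.47 (SD over pairs, n = 3; exact p = 0.5) against Dusp6 and 0.58 ± 0.21 (SD over pairs, n = 3; exact p = 0.2, adjusted 0.22) against Dusp7, with culture pairs on both sides of 0 for Dusp6 and all 3 above 0 for Dusp7. Within the nuclear class, Dusp1 changed by −7.89 ± 1.06 (SD over pairs, n = 3) relative to Dusp2, by −7.61 ± 0.61 (SD over pairs, n = 3) relative to Dusp5 and by −2.64 ± 0.39 (SD over pairs, n = 3) relative to Dusp4. The spread inside the nuclear class was thus wider than any difference between the classes.

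**Figure D3:**
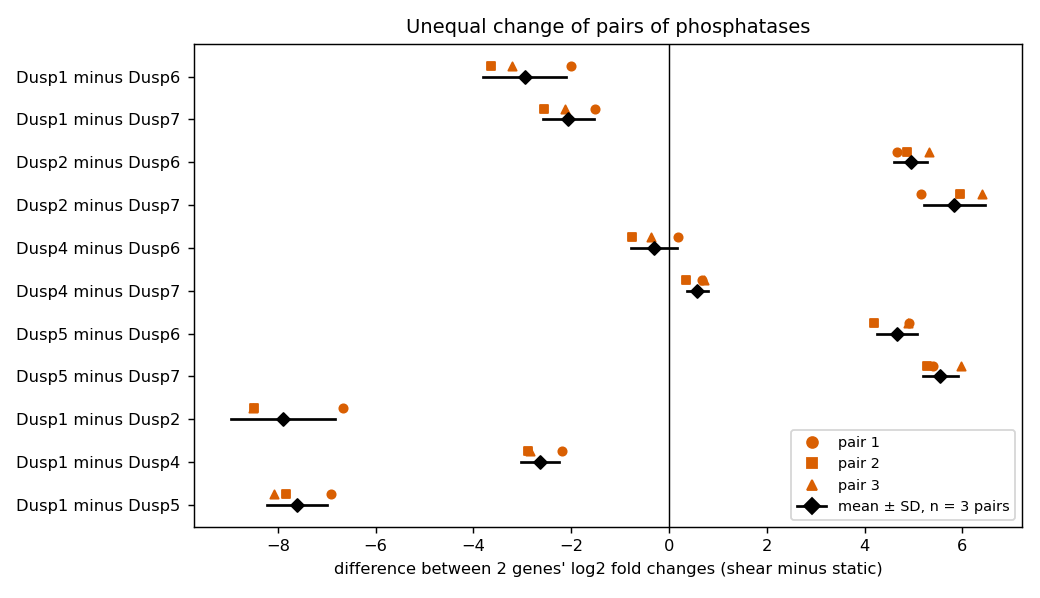
Difference in log2 change between the 2 genes of each of the 11 gene pairs, for each of the 3 culture pairs, with the mean. Dusp2 and Dusp5 lie above Dusp6 and Dusp7 in every culture pair, Dusp1 lies below all 5 genes it was compared with, and Dusp4 against Dusp6 has culture pairs on both sides of 0.

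Probe sets of other genes with the profile most like that of a member were found by Euclidean distance between centred log2 profiles over the 6 arrays. The nearest to Dusp2 were Ccl2 at a distance of 1.04, Mmp3 at 1.14 and Zfand2a at 1.15, with log2 fold changes of 5.32, 4.68 and 4.61. The nearest to Dusp1 were Shcbp1 at 0.26, Kif20b at 0.26 and Tacc3 at 0.28, with −2.59, −2.57 and −2.70. The neighbours of Dusp1 lay closer to it than those of Dusp2 to Dusp2, on a distance that is not scaled for the size of change. Dusp2 had the 4th largest rise and Dusp1 the 152nd largest fall, so fewer probe sets had a change as large as that of Dusp2.

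The members were then set beside other genes of the same pathways. Of 13 other dual-specificity phosphatases tested, 6 rose, 3 fell and 4 did not pass, with a median change of 0.29. Dusp9, a further cytoplasmic ERK phosphatase, read 2.0, 1.1 and 0.8 under static culture and 37.3, 62.0 and 84.8 under shear. It was tested because of its shear arrays, since its static signals lie below the filter on low signal, so a gene tested in this way had to differ and its log2 fold change of 2.11 is given as a description. Dusp18 was measured by 4 probe sets that disagreed, 2 risen and 1 fallen, with 1.06 on the brightest, and Ssh2, a cofilin phosphatase, rose by 0.79. Of 9 tyrosine and serine phosphatases that act on MAP kinases, 4 rose and 2 fell. Among them Ppm1a rose by 1.20 and Ppp2ca, a catalytic subunit of protein phosphatase 2A, by 0.70, while Ppm1d, which acts on p38, fell by 1.24.

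Of 15 genes of the ERK cascade, the substrate pathway of Dusp5, Dusp6 and Dusp7, 8 rose and 4 fell, with a median of 0.31. Among the 4, Ksr1 was tested because of its static arrays, since its shear mean lies below the filter on low signal, so it had to differ. The adaptor Grb2 rose by 1.07 on its brightest probe set and the Ras exchange factor Sos1 by 0.87. Rras2, a Ras relative, had 1 probe set that rose and 1 that fell. Of 8 genes of the JNK cascade 3 rose, among them the upstream kinases Map3k11 by 0.90 and Map3k12 by 0.59. The other JNK cascade genes were 4 that fell and 1 that did not pass, and the scaffold gene Spag9 fell by 0.72 on 1 of its 4 probe sets. Only 2 JNK cascade genes fell with quantile normalization or with arrays centred on their medians. Of 12 genes of the p38 cascade 5 rose and 2 fell. Mapk14, the main p38 kinase and a substrate of Dusp1 and Dusp10, went from 283.6 ± 11.8 (SD, n = 3) to 99.7 ± 27.0 (SD, n = 3), a log2 fold change of −1.40 (limma adjusted p = 9.5e-05). Its upstream kinase Map2k3 rose by 0.69 and the downstream Mapkapk3 by 1.36. Of 5 genes of ERK5 and atypical MAP kinases 3 rose and none fell, with Mapk6 at 1.37, Mapk7 at 0.92 and Nlk at 0.45. Of 6 kinases activated by MAP kinases 1 rose, Rps6ka2 at 0.41, and 2 fell, Rps6ka5 at −1.63 and Mknk2 at −0.77. Rps6ka2 lost its call with either pair 2 or pair 3 left out.

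**Figure D4:**
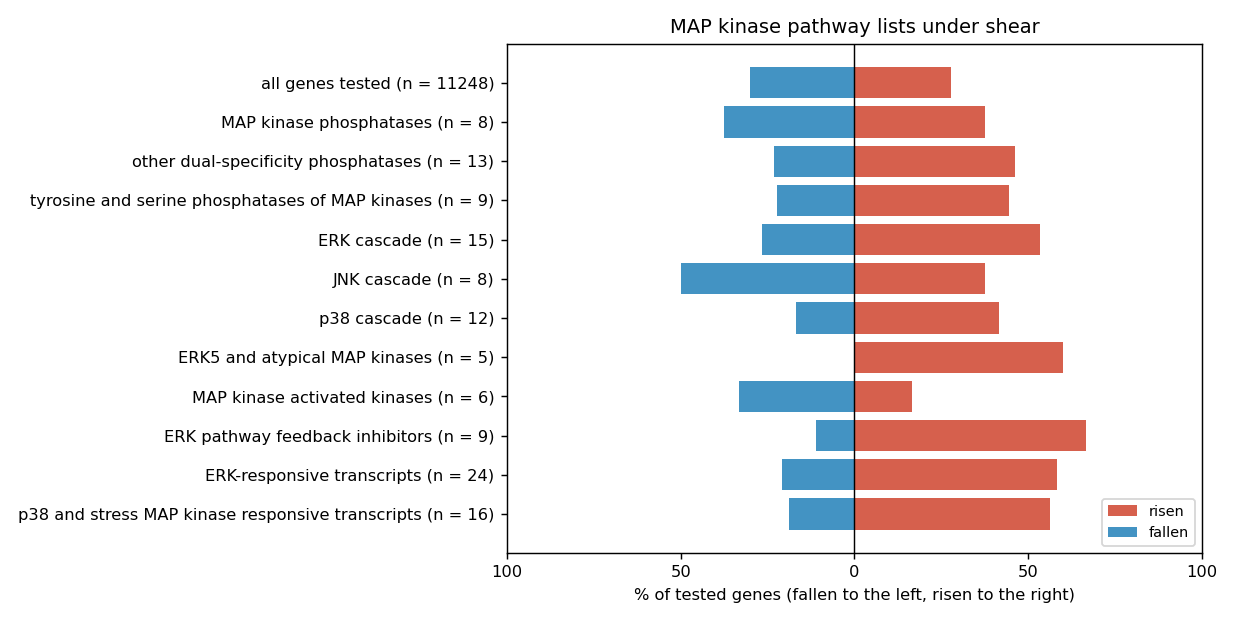
Share of tested genes (percent) that rose, to the right of 0, or fell, to the left of 0, in each pathway list and among all genes tested. The members divide evenly between risen and fallen. More genes rose than fell in every pathway list except the JNK cascade and the kinases activated by MAP kinases. The list of feedback inhibitors also holds Ras GTPase activators and Peli1.

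Of 9 genes tested from the list of other feedback inhibitors of the ERK pathway, 6 rose, 1 fell and 2 did not pass, with a median of 0.62. The list also holds Ras GTPase activators (Rasa1, Rasal2 and Nf1) and Peli1, so its counts are not those of feedback inhibitors alone. Spry2, which blocks receptor signalling to Ras, read 373.0, 312.6 and 314.1 under static culture and 1124, 1808 and 1646 under shear, a log2 fold change of 2.12 (SE 0.16, limma adjusted p = 3.4e-05). Its relative Spry1 went the other way, with 49.9, 98.6 and 98.0 against 9.7, 25.4 and 24.8 and a log2 fold change of −1.44 (SE 0.11, adjusted p = 3.9e-05). Spry4 had a change of −0.050 and did not pass. The Ras GTPase activators Rasa1 and Rasal2 rose by 1.56 and 1.59, and Errfi1, an inhibitor of the EGF receptor, by 1.61.

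Of 24 transcripts known to respond to ERK, 14 rose, 5 fell and 5 did not pass, with a median of 0.34. Without pair 2, 9 rose, and with the probe sets of each gene averaged 12 rose and 6 fell. Elk3 and Emp1 were counted as risen by their brightest probe sets, but Elk3 fell on 2 of 4 probe sets and Emp1 on 1 of 2. Plaur, the urokinase receptor, rose by 4.27, Fosl1, a member of the AP-1 family, by 2.89, Hmga1, a chromatin protein, by 2.03 and Phlda1 by 1.95. Fos, an early gene often induced together with Dusp1, fell by 3.76 on its brightest probe set, while its other probe set had −0.064 and did not pass. Of 16 transcripts known to respond to p38 and stress, 9 rose and 3 fell, with a median of 0.73. The chemokine Ccl2 rose by 5.32, the transcription factor Atf3 by 1.98 and Klf6 by 0.88. Over all 117 pathway genes tested, 59 rose, 26 fell and 32 did not pass, so 72.7% were called, beside 57.9% of all genes tested. The lists were chosen with earlier results of these data known and were not matched to all genes on signal. These shares are therefore a description and not a test of the pathway.

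**Figure D5:**
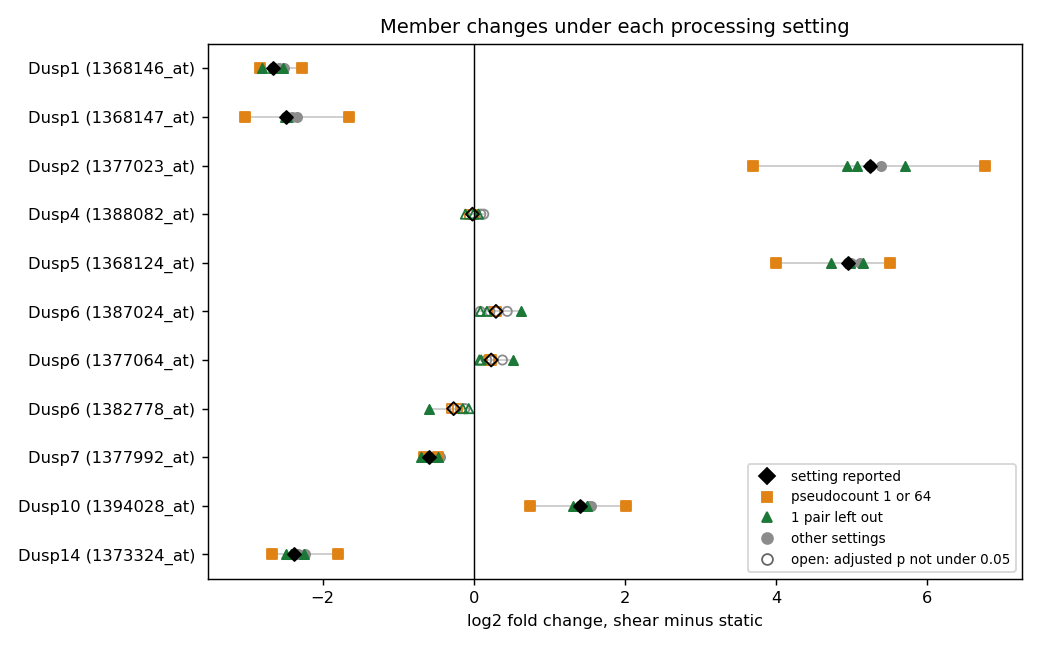
Log2 fold change of each member probe set under the setting reported (black), pseudocounts of 1 or 64 (orange), 1 pair left out (green) and the other settings (grey); open symbols did not pass the threshold. The pseudocount moves Dusp2 most, from 3.69 to 6.77, without changing its direction, and leaving out a pair turns open symbols into filled ones for Dusp6 alone.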

How the data were processed

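RNA from 3 static and 3 shear cultures was measured on 1-colour Affymetrix arrays, 1 array a culture. The deposited values are signal intensities on a linear scale, computed with MAS5 per the submitters' processing notes (version not given in the sources used here). From the values, the mean trimmed by 2% at each end was 100.0 on every array, and 3 to 10 probe sets an array read exactly 0. The number of arrays limits the precision. Detection calls were not used here.

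Of 31099 probe sets, 20826 had exactly 1 gene symbol in the platform annotation, and 20758 of these had a gene ID in the GRCr8 RefSeq table, including all 11 member probe sets, with 0 member symbols changed. Values were taken as log2(signal + 16). Control probe sets, 57 in all, were left out, as were the 30% whose mean was lowest, below 4.50 on that scale, which left 21729. These were fitted with limma 3.58.1 in R 4.3.3, with the pairing number as a block, an intensity trend and Benjamini-Hochberg adjustment over all of them. The study's design describes paired cultures. The correlation of deviations within pairs 1, 2 and 3 was 0.071, 0.065 and 0.063, and what the pairs share is not stated. Exact permutation tests used scipy 1.17.1.

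The members, lists and tests were chosen with earlier results of these data known. The text names every member probe set, up to 3 genes with the smallest p from each list, feedback inhibitors and ERK-responsive transcripts that passed with at least a 2-fold change, and the 3 nearest profiles of 2 members. Other genes named as background for a result (Dusp18 probe sets, Spry4, Ksr1, Nf1, Peli1, Elk3, Emp1 and the cell type markers) were chosen after their values were seen. The test of gene pairs under other settings was added after seeing the data. Alternatives were other normalizations, filters, pseudocounts and variance models, no block, and each pair left out.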

Additional observations from a re-analysis of the deposited data

How the results depend on the processing

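All 7 member probe sets that passed kept their call and direction in each of the 97 alternative fits that tested them, over 14 settings. The 11 differences between gene pairs kept their sign in all 151 alternative values. Many of these values could not differ, since the block, the variance model, the filter and median centring leave such a difference as it was. Only quantile normalization, another pseudocount, leaving out a pair or averaging the probe sets of a gene could change it. With no replicate block in place of the paired fit, 3 member genes rose and 3 fell, and no member call changed; with a random block the same counts were found. Leaving out 1 pair at a time gave 3 to 5 member probe sets risen, the highest without pair 1, where Dusp6 was added. The median of the nuclear members was 4.95 with a stricter filter on low signal, since Dusp4 was then not tested, and 1.84 with a pseudocount of 64. With no filter 34.1% of all probe sets passed, in place of 52.8%. Among the lists, other dual-specificity phosphatases had 5 fallen without pair 1, tyrosine and serine phosphatases 2 risen without pair 3, ERK5 and atypical MAP kinases 1 fallen without pair 1, and the ERK cascade 2 fallen with median centring or without pair 2 or pair 3. The JNK cascade also had 2 fallen with no filter or without pair 2 or pair 3, and the kinases activated by MAP kinases had 0 risen with no filter. For these the cause was not tested. Low static signals limit the fold changes of Dusp2, Dusp4 and Dusp10, and that of Dusp5 also moved with the pseudocount, from 3.99 to 5.50.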
